A study of Mus musculus with 16 samples.

Results

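Whether mice lacking Dio2 in astrocytes (Astro-D2KO) respond differently from control mice to status epilepticus (SE), a prolonged seizure, was measured across the genes of the hippocampus. The measure is a difference of differences, called the interaction below: the SE response (SE minus saline) of Astro-D2KO mice minus the SE response of control mice, on the log2 scale, so that a positive value means a higher rise or a smaller fall in Astro-D2KO mice. All 16 arrays of the series entered it, 4 in each of 4 groups formed by genotype and treatment in the sample titles. It was computed for 22180 genes, each stood for by the probe set with the highest mean among those with exactly 1 gene symbol, out of 41345 probe sets on the array.

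Control mice are given the genotype "wild type/ + cre Glia" and Astro-D2KO mice "+ Flox D2/ + cre Glia", so both genotypes carried a glial cre and only Astro-D2KO mice a floxed Dio2. All were C57BL/6 and 8 to 10 weeks old, and total RNA came from the hippocampus. Each mouse was given lithium chloride (10 mEq/kg) 18 h ahead of the second injection, which was saline or, in the SE groups, pilocarpine (65 mg/kg). The saline groups thus carried the lithium too, and effects of the drug pilocarpine and of the seizures cannot be told apart. The sources used here do not give the promoter driving the cre, the time from pilocarpine to tissue collection or a hybridisation batch. Nothing in the labels ties an array to a litter or a day, so the p-values measure the spread between these samples.

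Dio2 encodes type 2 deiodinase, the enzyme with which astrocytes turn the prohormone thyroxine (T4) into active triiodothyronine (T3), which neighbouring neurons and oligodendrocytes take up and which acts through the nuclear receptors encoded by Thra and Thrb. Dio3 encodes the deiodinase that inactivates T3, mainly in neurons. SE drives neurons to switch on immediate early genes such as Fos, Npas4 and Arc within minutes, followed by later activity-regulated genes, heat shock proteins, cytokines and the genes of reactive astrocytes.

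The targeted gene was read first. Under saline, Dio2 stood at 7.87, 8.25, 8.17 and 8.28 on the control arrays and at 6.75, 6.52, 7.09 and 6.77 on the Astro-D2KO arrays. The groups did not overlap, with a difference of -1.36 (2.57-fold lower; exact permutation test, two-sided, p = 0.0286, the smallest that 4 against 4 arrays allow). After SE, Dio2 stood at 9.51, 9.11, 9.24 and 7.99 on the control arrays and at 8.91, 7.03, 7.17 and 7.12 on the Astro-D2KO arrays. Here the groups overlapped: the array labelled control SE 4 was more than 1 unit under its group's others, and the array labelled Astro-D2KO SE 1 lay above every saline array of either genotype. The difference after SE was -1.41 (exact permutation test, two-sided, p = 0.0571), and -2.18 (4.55-fold lower) without these arrays. A second Dio2 probe set, not used for the gene, differed by -0.0852 under saline and by -0.122 after SE. The labels were kept as given, and values without these 2 arrays stand beside the results they move. Their choice rests on Dio2, so Dio2 values without them are a description.

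Among whole-array measures, the 16 arrays correlated with each other between 0.972 and 0.994, and the first principal component, which held 47.4% of the variance, separated SE from saline arrays. The hippocampal marker Prox1, of dentate granule cells, read 8.25 to 9.40 and Wfs1, of CA1 pyramidal cells, 8.91 to 9.86, against array medians near 6.2 to 6.3. Choroid plexus markers were uneven: the carrier protein gene Ttr ran from 7.45 to 13.09, with high and low arrays in each group. All 16 arrays had 3 Y-linked genes above Xist. The SE response itself was present on every SE array, including both arrays that stand apart in Dio2: the 100 genes with the largest average rise stood 2.16 to 2.48 above the saline mean of their genotype on each SE array.

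Promoter sequences are shown for 4 genes that the results turn on, as the 250 bases before the start site in RefSeq (GRCm38.p6), 5′ to 3′ on the strand of the gene. They are Dio2, the deleted gene (chr12:90739039-90739288, minus strand), Npas4 and Fos, immediate early genes with some of the largest responses (chr19:4989972-4990221, minus strand, and chr12:85473640-85473889, plus strand), and Serpinb2, the gene with the largest interaction once the 2 arrays were left out (chr1:107511173-107511422, plus strand, the more upstream of 2 listed starts). Capitals mark matches, on either strand, to the cAMP response element TGACGTCA, its half-site TGACG, or the AP-1 pattern TGANTCA. In the AP-1 pattern N was allowed to be any base.
Dio2: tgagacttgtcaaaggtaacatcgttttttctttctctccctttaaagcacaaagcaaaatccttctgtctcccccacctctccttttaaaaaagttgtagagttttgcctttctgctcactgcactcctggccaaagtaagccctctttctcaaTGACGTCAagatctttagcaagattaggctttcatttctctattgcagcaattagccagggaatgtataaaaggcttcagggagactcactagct
Npas4: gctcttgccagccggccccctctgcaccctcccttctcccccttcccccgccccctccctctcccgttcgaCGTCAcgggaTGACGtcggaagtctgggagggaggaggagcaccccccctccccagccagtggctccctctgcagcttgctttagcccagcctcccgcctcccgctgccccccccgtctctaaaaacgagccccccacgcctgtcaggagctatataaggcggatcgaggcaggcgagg
Fos: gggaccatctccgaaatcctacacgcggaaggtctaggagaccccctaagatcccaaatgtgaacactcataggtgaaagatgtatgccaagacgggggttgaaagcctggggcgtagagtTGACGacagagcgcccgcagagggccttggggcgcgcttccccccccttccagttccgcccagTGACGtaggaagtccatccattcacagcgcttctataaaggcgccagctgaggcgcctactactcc
Serpinb2: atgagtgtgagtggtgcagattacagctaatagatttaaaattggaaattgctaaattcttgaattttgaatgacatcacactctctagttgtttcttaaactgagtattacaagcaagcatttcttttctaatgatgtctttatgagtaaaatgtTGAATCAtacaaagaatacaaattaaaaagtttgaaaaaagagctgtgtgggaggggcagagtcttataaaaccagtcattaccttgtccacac
Dio2 holds the full element 95 bases before its start, which 1.55% of 32851 promoters of this length hold. Npas4 and Fos hold 2 half-sites each, 179 and 169 bases before the start in Npas4 and 129 and 66 in Fos, and a half-site, including those within a full element, occurs in 17.8% of promoters. Serpinb2 holds 1 match to the AP-1 pattern 94 bases before the start, with the letters TGAATCA. With any base at N, 6.75% of promoters hold a match. The thyroid hormone half-site AGGTCA, which 14% of promoters hold, has no match in these 4 windows. A match is a description of the letters, not a site shown to be bound.

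The hippocampus of both genotypes answered SE with largely shared changes. In control mice 4907 genes passed the test (22.1% of those tested; 1867, or 8.42%, rose and 3040, or 13.7%, fell), and in Astro-D2KO mice 4459 did (20.1%; 1661, or 7.49%, rose and 2798, or 12.6%, fell; limma, Benjamini-Hochberg over all genes). These responses rest on separate arrays. In the same direction, 3267 genes were called in both genotypes, which is 66.6% of the control calls and 73.3% of the Astro-D2KO calls. The responses correlated across all genes at r = 0.867. Over the 7233 genes called for the response averaged over genotypes (32.6%), r was 0.952. Choosing genes by that average itself favours a high correlation, so nothing is read from this rise. Genes are not independent replicates, and no p is attached. SE accounted for 46.7% of the summed variance of the gene levels, genotype for 4.08% and the interaction for 3.35%, while 45.9% lay within groups, or 3.82% per degree of freedom. The share of the interaction was thus below that of a single within-group degree of freedom.

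**Figure D1:**
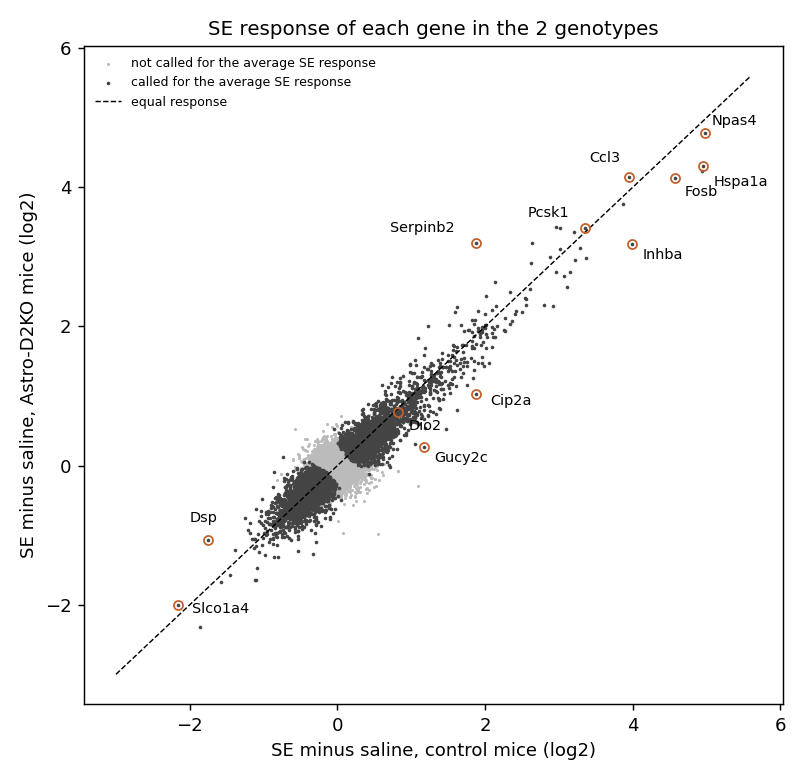
Each point is a gene, with its SE minus saline difference (log2) in control mice on the horizontal axis and in Astro-D2KO mice on the vertical axis; dark points are the 7233 genes called for the average response and the dashed line marks equal responses. The points lie along the line (r = 0.867 over all genes), and circles mark named genes, of which Serpinb2 (1.88 in control, 3.20 in Astro-D2KO mice) lies farthest above it.

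No gene passed the test of the interaction itself. Of 22180 genes, 0 (0%) had an adjusted p under 0.05 in limma, and the smallest adjusted p was 0.971. At an unadjusted p under 0.05 there were 1031 genes (4.65%; 525 with a positive interaction, 2.37%, and 506 with a negative one, 2.28%), where an even spread of p-values would give 5%. Among the 7233 genes called for the average response the share was 355 genes, 4.91%. Comparing genotypes directly also gave 0 calls (0%) under saline, with 885 genes (3.99%) at an unadjusted p under 0.05, and 0 calls (0%) after SE, with 1358 genes (6.12%). Dio2 was thus not called in either comparison, though under saline it was 2.57-fold lower in Astro-D2KO mice and its arrays did not overlap. The test missed the targeted gene, so 0 calls does not show that a difference is absent.

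**Figure D2:**
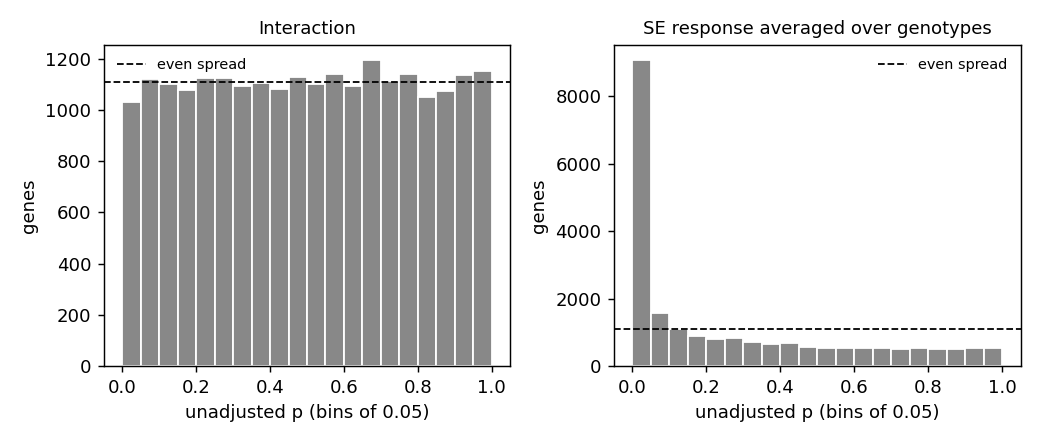
Histograms of unadjusted p-values over the 22180 genes in bins of 0.05, for the interaction on the left and for the average SE response on the right; the dashed line marks the 1109 genes a bin would hold under an even spread. The first bin holds 1031 genes for the interaction, below the line, and far more for the average response.

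The intervals give, 1 gene at a time and without adjustment for the number of genes, the precision of the interaction. They do not measure what the adjusted test could have missed. The 95% interval of the interaction reached a median of 0.31 to either side (5th to 95th percentile over genes, 0.22 to 0.55), against 0.22 for the SE response of a single genotype. For 21786 genes (98.2%) the whole interval lay within 1 log2 unit of zero, that is, within a 2-fold difference in response. This count includes genes read at low levels, for which a narrow interval need not mean a like response. The strong responders were bounded less tightly: of the 313 genes that passed the test and moved at least 2-fold on average (287 up, 26 down), 228 (72.8%) had intervals within 1 log2 unit. In the median gene of these 313, the interaction was 10.5% of the average response in size. The median interaction was -0.07 over the 287 risers and -0.05 over the 26 fallers, beside 0.00494 over all genes.

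Some genes passed in a single genotype. There were 1637 called in control mice alone and 1189 in Astro-D2KO mice alone. The estimate in the other genotype had the same sign for 1512 (92.4%) of the former and 1095 (92.1%) of the latter. An unadjusted interaction p under 0.05 was found for 283 (17.3%) and 219 (18.4%) of them, beside 4.65% of all genes; choosing genes called in 1 genotype alone itself favours a difference, so nothing is read from these shares. Only 3 genes were called in opposite directions: 4930539N22Rik (-0.42 in control, 0.38 in Astro-D2KO mice), the predicted gene Gm12409 (-0.32 and 0.24) and the olfactory receptor gene Olfr707 (-0.27 and 0.35), with adjusted interaction p-values of 0.998, 0.971 and 0.971 in limma.

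The genes that responded most to SE did so in both genotypes. The largest average rise was that of Npas4, a transcription factor made in active neurons, by 4.88. It read 5.82, 5.52, 5.81 and 6.02 on control saline arrays, 11.57, 11.13, 11.39 and 8.96 on control SE arrays, 5.80, 5.95, 5.97 and 5.90 on Astro-D2KO saline arrays and 10.31, 10.65, 10.44 and 11.36 on Astro-D2KO SE arrays. The array labelled control SE 4 was the lowest SE array of the 8 and Astro-D2KO SE 4 stood among the higher control arrays, so the genotypes overlapped. Its interaction was -0.19 (95% interval -1.36 to 0.99), and -0.66 (-1.19 to -0.13; limma, adjusted p = 0.686) without the 2 arrays.

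Hspa1a, an inducible chaperone of the HSP70 family, followed with an average rise of 4.62. It read 6.62 to 7.14 under saline in control mice, 11.09 to 12.21 after SE, 6.77 to 7.30 under saline in Astro-D2KO mice and 11.54, 12.09, 11.63 and 10.02 after SE. All SE arrays lay far above all saline arrays, the lowest of them being Astro-D2KO SE 4. Its interaction was -0.65 (-1.61 to 0.30), and that of its near-identical neighbour Hspa1b, whose signal may not be separable from it, was -0.71 (-1.69 to 0.27). Without Astro-D2KO SE 4 these values were -0.22 and -0.25.

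The AP-1 genes Fosb and Fos rose on average by 4.35 and 3.81. Fos read 5.30 to 6.27 on control saline arrays and 5.14 to 6.93 on Astro-D2KO saline arrays. After SE it read 10.09, 9.87, 9.93 and 8.80 in control mice and 9.65, 9.55, 9.52 and 9.96 in Astro-D2KO mice, again with control SE 4 as the lowest. The group means after SE were 9.67 ± 0.59 and 9.67 ± 0.20 (SD, n = 4), and the interaction of Fos was -0.11 (-1.09 to 0.87). That of Fosb was -0.44 (-0.96 to 0.07).

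Among these 10 risers and the 5 largest fallers the narrowest interval was that of Pcsk1, the convertase that cleaves neuropeptide precursors. It read 7.03, 7.15, 7.21 and 7.32 on control saline arrays and 10.57, 10.41, 10.73 and 10.43 after SE. In Astro-D2KO mice it read 6.91, 6.95, 7.20 and 7.17 under saline and 10.54, 10.41, 10.39 and 10.56 after SE. The rises were 3.36 and 3.42 with an interaction of 0.06 (-0.22 to 0.34). Its SE arrays overlapped between genotypes and its saline arrays did too. Inhba, which encodes the subunit of activin A, gave the largest interaction among the strongest risers, -0.81 (-1.70 to 0.07). Its SE arrays were alike, 10.08, 9.62, 10.39 and 10.35 in control and 10.19, 10.10, 9.92 and 10.19 in Astro-D2KO mice. Its saline arrays differed more, 6.57, 6.77, 5.84 and 5.28 against 7.00, 6.92, 6.14 and 7.63, and without control saline 4 its interaction was -0.53.

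Among the other strong risers, the chemokine gene Ccl3 rose by 4.05 on average (interaction 0.20, -1.02 to 1.42), the myeloid inhibitory receptor gene Lilrb4a by 3.28 (0.14, -1.60 to 1.89) and the stress gene Gadd45g by 3.21 (0.40, -0.57 to 1.37). The intervals of Ccl3 and Lilrb4a reach past 1 log2 unit on both sides of zero. The interaction of Gadd45g was 0.07 without Astro-D2KO saline 3. Saline levels of these genes were spread, from 4.90 to 7.11 for Ccl3 and from 4.87 to 7.57 for Lilrb4a in control mice.

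The largest falls were also shared. Slco1a4, an organic anion and thyroid hormone transporter of brain endothelium, fell by 2.16 in control mice (8.31 ± 0.43 to 6.15 ± 0.23, SD, n = 4) and by 2.01 in Astro-D2KO mice (8.31 ± 0.47 to 6.30 ± 0.16), an interaction of 0.15 (-0.48 to 0.79). It read 6.24, 6.27, 5.80 and 6.28 on control SE arrays and 6.49, 6.17, 6.37 and 6.15 on Astro-D2KO SE arrays, which overlap. The microRNA gene Mir421 fell on average by 2.09 (interaction -0.46, -1.16 to 0.24, and -0.26 without control SE 2), the olfactory receptor gene Olfr61 by 1.63 (-0.09, -1.46 to 1.28) and the zinc finger gene Zkscan16 by 1.52 (-0.12, -0.60 to 0.37). Dsp, the desmosome gene that marks dentate granule cells, fell by 1.75 in control and by 1.06 in Astro-D2KO mice, with an interaction of 0.69 (-0.18 to 1.56).

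**Figure D3:**
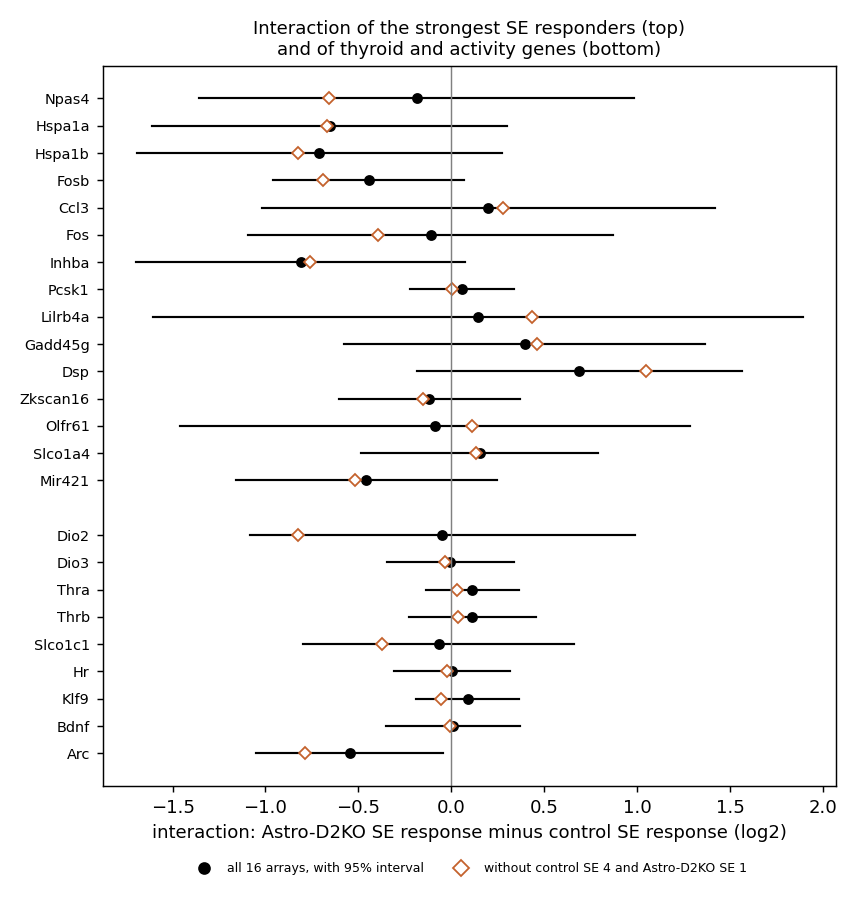
Interaction (log2, horizontal axis) with its 95% interval over all 16 arrays for the 10 largest risers and 5 largest fallers (upper block, ordered by average response) and for thyroid and activity genes (lower block); open diamonds give the value without control SE 4 and Astro-D2KO SE 1. All intervals cross 0 except that of Arc (-1.05 to -0.04), and the diamonds of Dio2 (-0.82), Npas4 (-0.66) and Arc (-0.79) lie below 0.

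The genes with the smallest unadjusted p in each direction were chosen by the interaction and are given as a description. In all 20 the SE differences of the genotypes do not overlap, as they did not for 1856 of all genes (8.37%), and the smallest adjusted p was 0.971. With 32 added on the linear scale, which damps low levels, 14 of the 20 interactions shrank by over 1.5 times. Many are genes of other tissues read at low levels: Pate7 lay between 3.18 and 3.70 on every array and Olfr707 between 2.96 and 3.67. Besides the 3 genes with opposite calls, the positive side held the zinc finger gene Zfp992 (0.87), Nudt14 (0.64), the small nucleolar RNA gene Snord16a (0.62), the adrenal steroid hydroxylase gene Cyp11b1 (0.55), Pate7 (0.50), the mitochondrial pyruvate carrier gene Mpc1 (0.47) and the orphan receptor gene Gpr101 (0.45). The negative side held Gucy2c (-0.91), Tagap1 (-0.81), Smim40 (-0.64), Gm7361 (-0.62), Gm8579 (-0.62), the desmoglein gene Dsg4 (-0.61), Gm16796 (-0.55), Ly6g2 (-0.55), the beta-defensin gene Defb3 (-0.54) and the endophilin gene Sh3gl3 (-0.41).

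Gucy2c, a membrane guanylate cyclase known as the receptor of guanylin peptides, was the one of these 20 that rose most in control mice. It read 5.38, 5.22, 5.19 and 5.48 under saline and 7.09, 6.45, 6.40 and 5.98 after SE in control mice. In Astro-D2KO mice it read 5.56, 5.57, 5.45 and 5.67 under saline and 5.87, 5.92, 5.65 and 5.85 after SE. Every control SE array lay above every Astro-D2KO SE array, with control SE 4 closest to them. The response was 1.17 ± 0.16 (standard error of the fit; limma, adjusted p = 5.12e-05) in control and 0.26 ± 0.16 (adjusted p = 0.288) in Astro-D2KO mice, and the difference, -0.91 ± 0.22, had an unadjusted p of 0.00081 and an adjusted p of 0.998.

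Mpc1 and Sh3gl3 were read well above the array medians. Mpc1 read 9.78, 9.97, 9.98 and 9.97 under saline and 9.75, 9.97, 9.64 and 9.61 after SE in control mice. In Astro-D2KO mice it read 9.42, 9.52, 9.51 and 9.42 under saline and 9.85, 9.73, 9.75 and 9.72 after SE. The genotypes did not overlap under saline and overlapped after SE, and the fitted responses were -0.18 and 0.29. With the mean of its 2 probe sets the interaction of Mpc1 was 0.25 instead of 0.47. Sh3gl3, in contrast, was alike under saline (8.16 ± 0.08 and 8.16 ± 0.02, SD, n = 4) and stood after SE at 8.08 ± 0.10 in control and 7.67 ± 0.10 in Astro-D2KO mice.

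Only 5 genes had an interaction over 1 in size, none of them called. They were Ttr (-1.52 ± 1.73, standard error), the histone variant gene H2az1 (-1.39 ± 0.52), Serpinb2 (1.32 ± 0.90), the olfactory receptor gene Olfr344 (1.10 ± 0.33) and Calb2, which encodes calretinin (-1.05 ± 0.45). Without single arrays Ttr ran from -2.74 to -0.75, and without the 2 arrays apart in Dio2 it was -0.65. For H2az1, 1 array stood low: the Astro-D2KO SE arrays read 6.57, 6.91, 4.72 and 6.72, and without the third of them the interaction was -0.89.

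Among thyroid hormone genes, the response of Dio2 itself gave no interaction call. Dio2 changed with SE by 0.82 in control and by 0.77 in Astro-D2KO mice, neither passing the test alone (adjusted p = 0.105 and 0.138), while their average passed (0.80, adjusted p = 0.018). The interaction was -0.05 ± 0.49 (standard error; 95% interval -1.08 to 0.99), and -0.82 without the 2 arrays (unadjusted p = 0.000551, adjusted p = 0.598), an exclusion that Dio2 itself had chosen. The inactivating deiodinase gene Dio3 had group means of 4.78 to 4.81 with an interaction of -0.01 (-0.35 to 0.34).

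The receptor genes Thra and Thrb had interactions of 0.11 each (-0.14 to 0.36 and -0.23 to 0.46). Thra fell by 0.32 in control mice (adjusted p = 0.0106) and its change in Astro-D2KO mice, -0.20, did not pass (adjusted p = 0.102). The transporter gene Slco1c1, which brings T4 across brain endothelium and into astrocytes, had an interaction of -0.07 (-0.80 to 0.66). Hr and Klf9, genes that T3 raises in brain, gave 0.00 (-0.31 to 0.31) and 0.09 (-0.19 to 0.37). Klf9 rose in both genotypes, by 0.35 and 0.44.

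Of 19 measured genes for the metabolism, transport and reception of thyroid hormone, 2 rose and 4 fell in control mice and 3 rose and 2 fell in Astro-D2KO mice, where 8.42% and 13.7% of all genes did in control and 7.49% and 12.6% in Astro-D2KO mice. None passed the interaction, 0 had an unadjusted p under 0.05, and their median interaction was 0.05 (0.03 without the 2 arrays). Of 21 measured genes raised by T3 in brain, 0 passed the interaction and 3 (Luzp1 at -0.27, Mbp at -0.31 and Mag at -0.43) had an unadjusted p under 0.05, beside 2.28% of all genes at that level and sign. Mbp and Mag also belong to the oligodendrocyte list below, so these lists are not separate observations. The median of the 21 genes was -0.03 over all arrays and -0.11 without the 2 arrays. In the latter case 18 of 21 were negative, beside 48.1% of all genes and a median of all genes of 0.0083. Of 10 measured genes lowered by T3, 0 passed, with a median of -0.0049 (0.01 without the 2 arrays).

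Immediate early genes rose together in both genotypes. All 38 measured members rose in control mice and 37 of 38 in Astro-D2KO mice, beside 8.42% and 7.49% of all genes. The median responses of the list were 2.21 and 1.99. None passed the interaction. The interaction was negative for 27 and positive for 11, beside 48.7% and 51.3% of all genes, with a median of -0.13, and the 2 members with an unadjusted p under 0.05, Arc and Ier2, were both negative. Averaged over the list, the SE difference was 2.46, 2.22, 2.35 and 1.90 on the control SE arrays and 2.08, 2.08, 2.09 and 2.30 on the Astro-D2KO SE arrays. Control SE 4 was the lowest of the 8, and Astro-D2KO SE 4 lay within the range of the other control arrays. Without the 2 arrays the median was -0.17, and 6 of 38 members had an unadjusted p under 0.05, all negative, a level that 3.31% of all genes reached with a negative interaction: Arc (-0.79), Fosb (-0.69), Npas4 (-0.66), Egr3 (-0.60), Egr4 (-0.59) and Ier2 (-0.44).

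Arc, whose product shapes glutamate receptor traffic at synapses, read 8.10, 7.91, 8.00 and 7.97 under saline and 11.40, 11.11, 11.25 and 10.63 after SE in control mice. In Astro-D2KO mice it read 8.61, 8.59, 7.98 and 8.10 under saline and 11.14, 11.04, 10.75 and 10.59 after SE. The SE arrays of the genotypes overlapped, and 2 Astro-D2KO saline arrays stood above all control ones. The responses were 3.11 and 2.56 and the interaction -0.55 ± 0.24 (unadjusted p = 0.0351, adjusted p = 0.998). Bdnf, the neurotrophin gene, rose by 2.01 and 2.02, an interaction of 0.01 (-0.35 to 0.37).

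Later activity-regulated genes and neuropeptides rose in 26 of 31 measured members in each genotype, beside 8.42% and 7.49% of all genes. The list had median responses of 1.26 and 1.36 and a median interaction of -0.05 (0.005 without the 2 arrays). The member with the most positive interaction was Acan, the perineuronal net proteoglycan gene (2.13 in control, 2.64 in Astro-D2KO mice). Of 17 heat shock proteins and chaperones, 11 rose in control and 10 in Astro-D2KO mice, beside 8.42% and 7.49% of all genes. The interaction was negative for 15 of these 17, beside 48.7% of all genes, with a median of -0.21 (-0.16 without the 2 arrays), and the single member with an unadjusted p under 0.05 was Hsph1 (-0.52), the partner of HSP70 chaperones. Their list means overlapped between genotypes, at 1.44, 1.24, 1.02 and 1.38 against 1.05, 1.23, 1.15 and 0.76.

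Inflammatory and astrocyte genes gave no genotype call either. Of 31 cytokine, chemokine and NF-kB target genes, 19 rose in control and 18 in Astro-D2KO mice, beside 8.42% and 7.49% of all genes. The median interaction of the 31 was -0.05 (0.07 without the 2 arrays), with 0 members at an unadjusted p under 0.05. Among 13 pan-reactive astrocyte genes, 2 rose in control and 4 in Astro-D2KO mice, beside 8.42% and 7.49% of all genes. Their list mean was 0.58, 0.35, 0.48 and 1.43 on control SE arrays and 0.46, 0.79, 1.26 and 0.60 on Astro-D2KO SE arrays, so control SE 4 was the highest of the 8. The median interaction was 0.09 over all arrays and 0.36 without the 2 arrays, where all 13 were positive, beside 51.9% of all genes, and 0 had an unadjusted p under 0.05. The 12 A2 astrocyte genes showed the same array apart, at 0.90, 0.82, 0.86 and 1.72 in control mice, with a median interaction of 0.08 (0.33 without the 2 arrays). The 8 measured A1 genes had -0.10 (-0.07). Astrocyte identity markers, 17 measured, had a median interaction of 0.04 (-0.04).

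Further pathways had 0 members called, with these median interactions, each followed in brackets by the value without the 2 arrays. The stress pathways gave 0.09 (0.02) for 19 NRF2 and antioxidant genes, -0.00088 (0.02) for 22 genes of the integrated stress and unfolded protein responses and 0.02 (-0.05) for 21 glucocorticoid-responsive genes. The signalling lists gave 0.085 (-0.02) for 20 glutamate receptor genes, -0.0046 (-0.07) for 16 GABA signalling genes and -0.04 (-0.04) for 27 voltage-gated channel genes. The metabolic lists gave -0.0031 (-0.01) for 17 cholesterol synthesis genes, 0.07 (0.07) for 31 respiratory chain genes and 0.05 (0.04) for 22 genes of glycolysis and glucose transport, and 18 clock genes gave 0.01 (-0.06). The respiratory chain fell in 11 members in control and in 8 in Astro-D2KO mice, where 13.7% and 12.6% of all genes did. Its member with the lowest unadjusted p was Ndufs3, a complex I subunit gene, which fell by 0.57 in control and by 0.28 in Astro-D2KO mice.

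Oligodendrocyte markers were the list with the lowest median interaction of the 38. None of its 10 measured members passed the interaction, all 10 were negative, the median was -0.33, and 6 of 10 had an unadjusted p under 0.05, beside 2.28% of all genes with a negative interaction at that level. None passed the SE test in control mice, and 4 fell in Astro-D2KO mice: Aspa, Mag, Ugt8a and Mbp. Of all genes, 22.1% passed in control mice and 12.6% fell in Astro-D2KO mice. The list mean shifted by 0.14, 0.15, -0.02 and -0.26 on the control SE arrays and by -0.17, -0.60, -0.31 and -0.21 on the Astro-D2KO SE arrays. Control SE 4 lay among the Astro-D2KO arrays, and the other 3 control arrays lay above all of them. Without the 2 arrays the median was -0.42 and 7 of 10 had an unadjusted p under 0.05. In bulk tissue fewer oligodendrocytes and less RNA per oligodendrocyte cannot be told apart, and the share of white matter in each dissection was not tested.

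Aspa, which encodes the oligodendrocyte enzyme that releases acetate from N-acetylaspartate, read 7.09, 7.68, 7.54 and 7.67 under saline and 7.26, 7.42, 7.57 and 6.57 after SE in control mice. In Astro-D2KO mice it read 7.79, 7.34, 7.87 and 7.33 under saline and 6.78, 5.96, 6.38 and 6.81 after SE. Control SE 4 fell within the Astro-D2KO SE arrays. Aspa fell by 1.10 in Astro-D2KO mice (adjusted p = 0.00162) and changed by -0.29 in control mice (adjusted p = 0.394), an interaction of -0.81 ± 0.31 (unadjusted p = 0.0177, adjusted p = 0.998).

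Mbp, the gene of myelin basic protein, read 8.79 to 9.22 after SE in control mice, with control SE 4 the lowest, and 8.81, 8.45, 8.59 and 8.65 in Astro-D2KO mice, against saline means of 9.02 and 8.94. Its interaction was -0.31 ± 0.13. Those of Mag, Cldn11, Ugt8a and Ermn were -0.43, -0.41, -0.41 and -0.36. Mog, Mobp, Cnp and Opalin, also genes of mature oligodendrocytes, had -0.02, -0.10, -0.16 and -0.22, so members of the same cell type were not uniform. The precursor markers, 9 measured, had a median of 0.01 (-0.12 without the 2 arrays).

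For the other cell types no member was called, and the medians follow in the same form. Among glial and vascular markers they were -0.13 (-0.12) for 17 microglia, 0.0033 (0.115) for 15 endothelial, 0.10 (0.14) for 11 pericyte and smooth muscle, 0.23 (0.34) for 10 leptomeningeal and -0.035 (0.04) for 5 blood cell markers. Among neuronal markers they were 0.02 (0.001) for 14 pan-neuronal, 0.01 (0.0042) for 14 dentate granule cell and -0.09 (-0.08) for 14 CA2 and CA3 markers. The 7 CA1 markers, all positive, had 0.25 (0.10). Their list means were -0.04, -0.18, -0.05 and -0.06 on control SE arrays and 0.34, 0.05, 0.07 and 0.08 on Astro-D2KO SE arrays, the highest being Astro-D2KO SE 1. These did not overlap between genotypes, alone among the 38 lists. Of all single genes 8.37% did not overlap, which is not a share of lists. Dcn belongs to both the CA1 and the leptomeningeal list, so those lists are not separate observations. The thalamus and habenula means overlapped only narrowly, with control SE 2 at 0.0495 and Astro-D2KO SE 4 at 0.0499. Interneuron, thalamus and habenula, striatum and neocortex markers had 0.06 (0.05), -0.23 (-0.15), 0.16 (0.25) and -0.03 (-0.10), and 4 sex-linked genes had -0.09 (-0.11). Choroid plexus markers, 11 measured, had 0.20 (0.38), while their mean shift ran from -0.65 to 0.71 over control SE arrays and from -0.64 to 1.22 over Astro-D2KO SE arrays, so arrays of either genotype spread widely; the part of choroid plexus in other results was not tested.

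**Figure D4:**
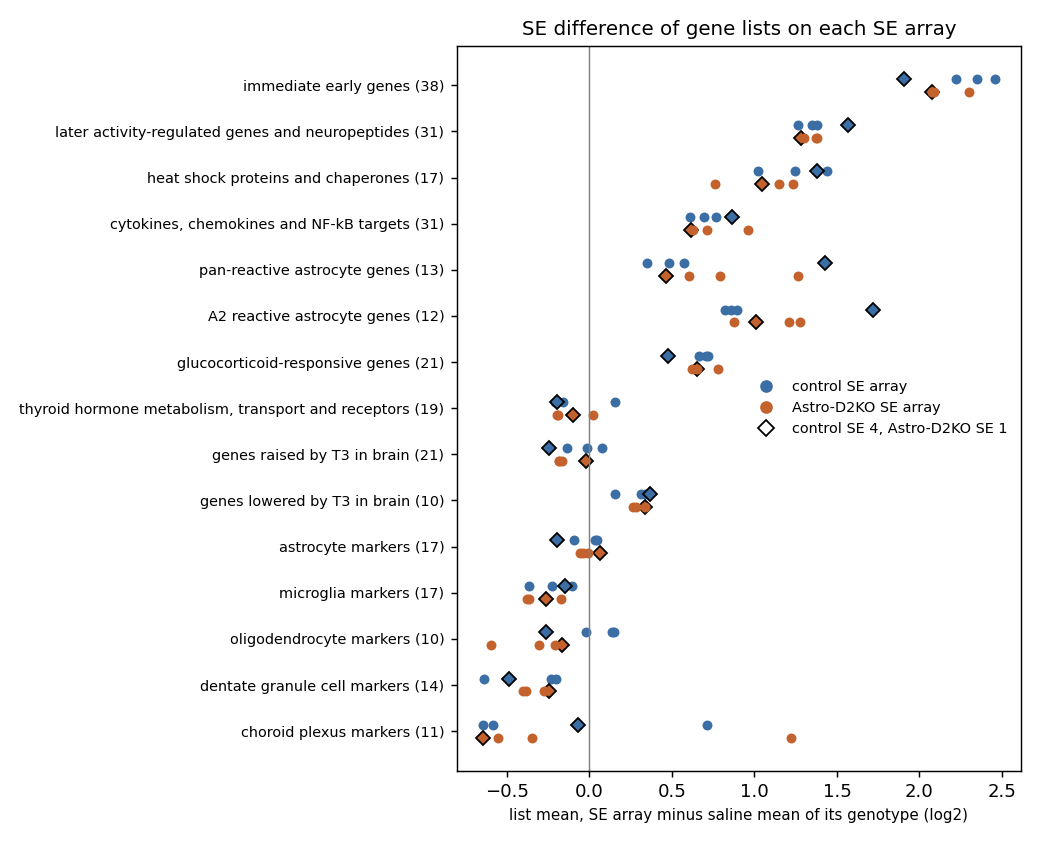
Mean SE difference of 15 gene lists (number of measured genes in brackets) on each SE array, taken from the saline mean of its genotype (log2, horizontal axis); blue points are control and orange points Astro-D2KO arrays, and outlined diamonds mark control SE 4 and Astro-D2KO SE 1. Genotypes overlap in each list shown. Control SE 4 lies apart from the other control arrays in the immediate early, later activity-regulated, pan-reactive, A2, glucocorticoid-responsive and oligodendrocyte lists.

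Leaving out control SE 4 and Astro-D2KO SE 1 together brought 1 gene past the interaction test (0.00451% of those tested), Serpinb2. It encodes plasminogen activator inhibitor type 2, an intracellular serpin that activity raises in neurons. It read 3.56, 3.71, 3.92 and 3.85 under saline and 5.13, 4.37, 4.52 and 8.53 after SE in control mice. In Astro-D2KO mice it read 3.60, 3.96, 3.69 and 3.71 under saline and 5.63, 7.50, 7.43 and 7.20 after SE. The highest of all 16 values was the array labelled control SE 4, and the lowest among Astro-D2KO SE arrays was Astro-D2KO SE 1, which are the same arrays that stand apart in Dio2.

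Over all 16 arrays the responses of Serpinb2 were 1.88 in control and 3.20 in Astro-D2KO mice, an interaction of 1.32 ± 0.90 (95% interval -0.58 to 3.22; limma, adjusted p = 0.998). Without the 2 arrays it was 2.72 ± 0.22 (2.25 to 3.18; adjusted p = 4.92e-05). The 2 arrays were chosen on Dio2 with earlier results of these data known, and Serpinb2 was named after its values were seen. The same arrays hold the extreme Serpinb2 values of their groups. This call rests on 3 SE arrays a genotype, and its adjusted p is given as a description. At an unadjusted p under 0.05, this exclusion gave 1479 genes (6.67%; 3.36% positive), and genes whose SE differences did not overlap between genotypes numbered 4789 (21.6%) with 3 SE arrays against 3.

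The direct comparison of genotypes after SE, which shares its SE arrays with the interaction, called 5 genes (0.0225%) under the same exclusion. Serpinb2 was higher in Astro-D2KO mice by 2.70, and 4 genes were lower: Dio2 (-2.18), the phosphatase inhibitor gene Cip2a (-1.47), the replication clamp gene Pcna (-1.03) and Fa2h (-0.64), whose enzyme makes the hydroxylated lipids of myelin. At an unadjusted p under 0.05 there were 2508 genes (11.3%). Under saline, 1 gene (0.00451%) passed with this exclusion, Dio2, and 4.59% of genes had an unadjusted p under 0.05. After SE, without control SE 4 alone 2 genes passed (Serpinb2 and Fa2h), and without Astro-D2KO SE 1 alone 1 did (Dio2). Since Dio2 had chosen the arrays left out, its calls after SE follow from that choice and are given as a description.

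Pcna read 10.47, 10.07, 10.12 and 9.14 after SE in control and 9.96, 9.14, 9.35 and 9.07 in Astro-D2KO mice, with saline means of 8.42 and 8.34. Control SE 4 was nearer the Astro-D2KO arrays and Astro-D2KO SE 1 nearer the control arrays. Pcna and Cip2a were named from the calls made without these arrays. That choice favours genes in which these arrays cross, so nothing is read from the crossing in either gene. Pcna rose in both genotypes, by 1.52 and 1.04, with an interaction of -0.49 (-1.15 to 0.17) over all arrays and -0.95 (-1.30 to -0.59; adjusted p = 0.435) without the 2.

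Cip2a read 7.81, 6.72, 7.49 and 5.79 after SE in control mice and 6.70, 5.90, 5.85 and 5.87 in Astro-D2KO mice, the same 2 arrays being the ones that cross. It rose by 1.87 and 1.02, with an interaction of -0.85 (-1.78 to 0.08), and -1.45 without the 2 arrays (adjusted p = 0.456). Fa2h read 8.64, 8.69, 8.71 and 8.27 after SE in control and 8.18, 7.92, 8.17 and 8.04 in Astro-D2KO mice, with saline means of 8.41 and 8.42. Here control SE 4 stood low and Astro-D2KO SE 1 lay within its group. Fa2h fell by 0.34 in Astro-D2KO mice (adjusted p = 0.0217) and changed by 0.17 in control mice (adjusted p = 0.257), an interaction of -0.52 ± 0.14 (adjusted p = 0.998). Ddx10, an RNA helicase gene, had interactions of -0.56 over all arrays and -0.80 without the 2 (adjusted p = 0.435).

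**Figure D5:**
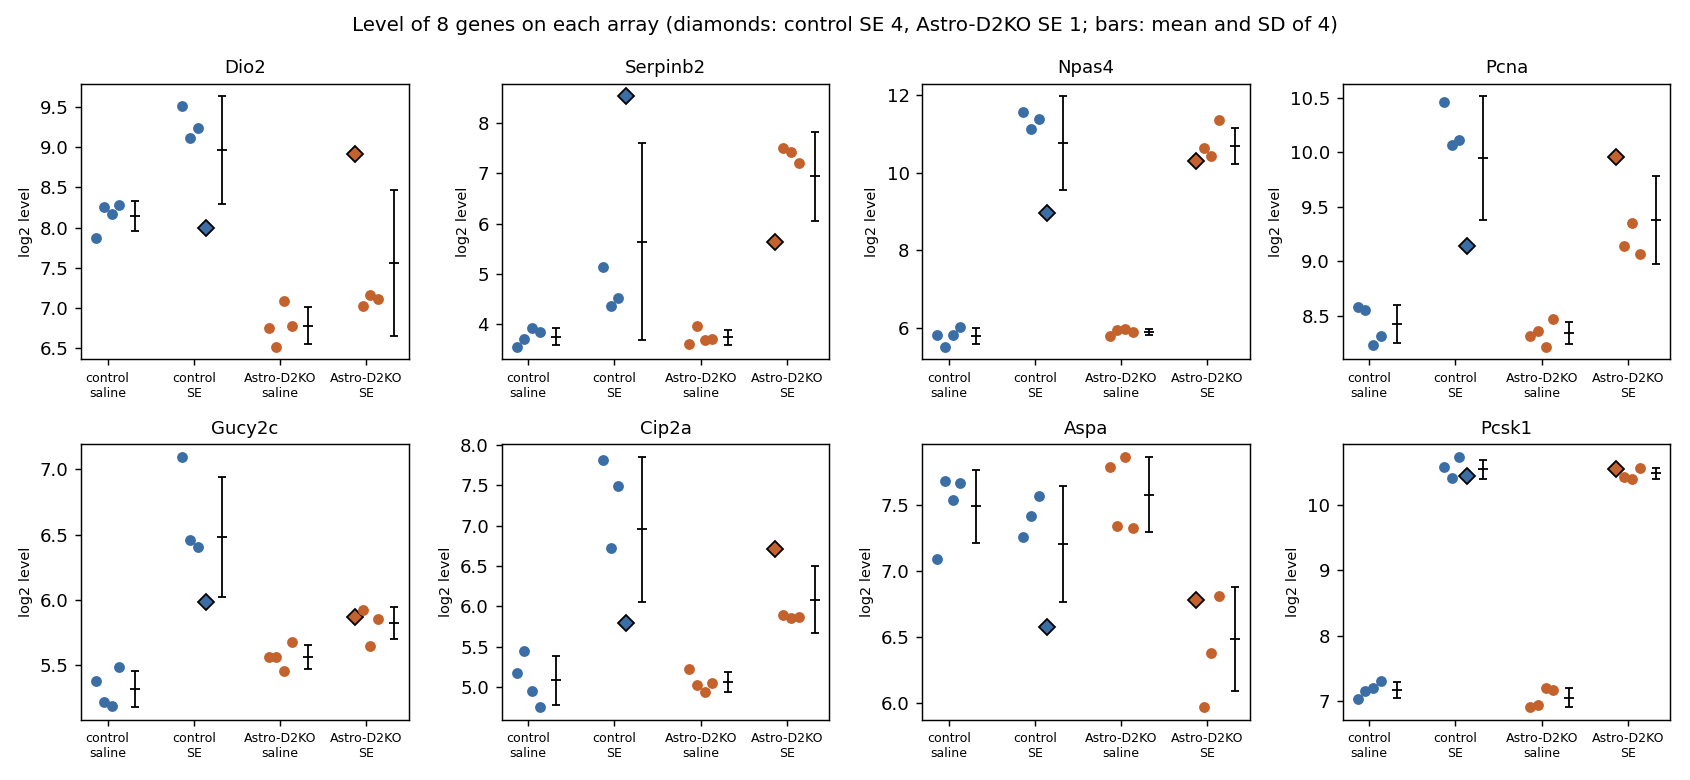
Level (log2, vertical axis) of 8 genes on each of the 16 arrays by group; blue marks control and orange Astro-D2KO mice, outlined diamonds are control SE 4 and Astro-D2KO SE 1, and bars give the mean and SD of 4 arrays. Pcsk1 is alike in both genotypes after SE (10.54 and 10.48), while in Dio2, Serpinb2, Pcna and Cip2a both diamonds lie toward the points of the other genotype. Dio2 chose these arrays and the other genes were named with them left out, so this is a description.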

How the data were processed

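Hippocampal RNA of 16 mice was measured on Affymetrix arrays. The deposited values are log2 units made with RMA, per the submitters' processing notes, which corrects background, normalises by quantiles and summarises probe sets; the log base was inferred from values of 1.70 to 13.79. Of 41345 probe sets, 23521 had 1 symbol in the platform annotation, 1814 several and 16010 none. Entrez identifiers of 23328 matched RefSeq, which changed 0 symbols. Arrays have no read depth; 4 arrays per group limit the precision.

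Group means over all 16 arrays were fitted with limma 3.58.1 (R 4.3.3), with empirical Bayes moderation. Contrasts were two-sided, with Benjamini-Hochberg adjustment over 22180 genes and a threshold of 0.05. Values after ± are standard errors of the fit unless given as SD. The fit was tested on simulated data with independent noise and no array standing apart, so that test does not cover such arrays.

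Members, the 38 gene lists (641 symbols, 574 measured) and the 2 arrays examined apart were chosen with earlier results of these data known. Named genes were the 10 with the smallest p in each interaction direction, the 10 largest risers and 5 largest fallers on average, 13 thyroid and activity genes, and the extreme members of each list; Serpinb2, Pcna, Cip2a, Ddx10, Fa2h, H2az1, Olfr344, Luzp1, Ier2, Hsph1, Egr3, Egr4, Ndufs3, Prox1, Wfs1 and the remaining oligodendrocyte markers were named after their values were seen. Motifs were searched in RefSeq promoters (GRCm38.p6).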

Additional observations from a re-analysis of the deposited data

Results flagged for a closer look

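Of 64 groups of 4 arrays (16 genes shown by array, 4 groups each), 7 held an array farther from the others than Dixon's 95% value allows. For a group not chosen on its values chance gives about 1 in 20; Dio2 chose the 2 arrays and Serpinb2, Pcna, Cip2a and Fa2h were named with them left out, so the count is not set against chance. On the array labelled Astro-D2KO SE 1, Dio2 read 8.91 (nearest other 7.17), Serpinb2 5.63 (nearest 7.20) and Cip2a 6.70 (nearest 5.90). On the array labelled control SE 4, Npas4 read 8.96 (nearest 11.13) and Fa2h 8.27 (nearest 8.64). Slco1a4 read 5.80 on control SE 3 (nearest 6.24), and Mpc1 9.78 on control saline 1 (nearest 9.97). The SE response of Serpinb2 differed between genotypes by 2.72 without control SE 4 and Astro-D2KO SE 1 (limma, adjusted p = 4.92e-05), given as a description. Why these arrays stand apart was not tested.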

How the results depend on the processing

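The interaction gave 0 calls under each of 10 alternatives in normalization, probe set, low-level filter, log scale, moderation, array weights, replicate block and features tested, and without each single array. Genes at an unadjusted p under 0.05 numbered 875 to 1393 where the number tested was that of the main analysis. They numbered 796 with the low-level filter, where fewer genes were tested, and 2074 of 41345 when all probe sets were tested. Leaving out control SE 4 and Astro-D2KO SE 1 together moved the calls to 1 for the interaction, to 1 for genotype under saline (Dio2, whose own difference did not move) and to 5 for genotype after SE; leaving out 1 array at a time gave 0 to 2 calls for genotype after SE. Counts for SE ran from 3998 to 4971 in control, 3486 to 4707 in Astro-D2KO mice and 6646 to 7286 on average without single arrays. The 5 calls after SE include Dio2, which had chosen the arrays left out. The other Dio2 probe set gave -0.0852 under saline and no call.

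Interactions near 0 changed sign. Median centring gave Hr -0.0028, repeated quantile normalization gave Dio2 0.0207, adding 32 on the linear scale gave Dio3 0.00037 and Hr -0.000142, and array weights gave Hr -0.0543 and Bdnf -0.0366. Without both arrays Olfr61 was 0.11, Hr -0.0213, Klf9 -0.0529 and Bdnf -0.00746. Without single arrays the ranges that cross 0 were -0.089 to 0.10 for Bdnf, -0.15 to 0.67 for Ccl3, -0.50 to 0.14 for Dio2, -0.13 to 0.091 for Dio3, -0.40 to 0.23 for Fos, -0.085 to 0.10 for Hr, -0.34 to 0.74 for Lilrb4a, -0.79 to 0.084 for Npas4, -0.49 to 0.36 for Olfr61, -0.058 to 0.36 for Slco1a4 and -0.31 to 0.11 for Slco1c1. The cause was not tested.

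The replicate numbers do not pair the arrays: deviations of same-numbered arrays correlated between -0.29 and 0.34, over 0.1 in 4 of 24 pairs, and 3 of 16 arrays correlated best with their own number. The replicate block gave 0 interaction calls (959 genes at an unadjusted p under 0.05) and 4576, 4109 and 6967 calls for SE (control, Astro-D2KO, average).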
